A study of Mus musculus with 18 samples.

Results

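The comparison set CD8+ T cells called iRTE against naive CD8+ T cells of the spleen, over 10 of the 18 mouse RNA sequencing libraries of the study. The members were chosen by sample title, iRTE 1 to 5 and splenic CD8 1 to 5, and not by any measured value. The iRTE cells (n = 5) were differentiated from a source named Pmel iPSC, induced pluripotent stem cells, and the labels do not spell the abbreviation iRTE out. They are taken, by elimination, as the CD8+ cells from 3D thymic culture that the study design lists, although the growth field of all libraries, splenic ones included, names the OP9-DL1 stromal line. The splenic cells (n = 5) were taken ex vivo from a source named transgenic mice, with sample descriptions that also carry the word pmel. All were recovered by flow sorting on TCRab, CD8, CD4 and CD45, leaving out cells with NK1.1, the gamma-delta receptor or CD11c. The strain, sex and age of the animals and the sex of the stem cells are not given, and no label says that the 5 libraries of a group stand for different cultures or mice. The p-values therefore describe the spread among these libraries, which may be technical. Cell source, culture and, by their Y-linked transcripts, sex differ together between the groups and cannot be told apart.

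A CD8+ T cell leaves the thymus before it is fully mature. In the weeks after export it gains surface class I molecules of the Qa2 type, settles into quiescence under factors such as Klf2, Tcf7, Lef1 and Foxp1, and depends on interleukin-7 and on weak contacts with self peptides for survival. Resting naive cells carry class I molecules and lymph node homing receptors and, under low tonic interferon, a basal level of interferon-induced genes, whereas cell division, granzymes and inflammatory chemokine receptors mark activated cells.

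Total counts per library lay between 11691286 and 16533373 for iRTE, and between 11132768 and 17671852 for splenic cells. At these depths 3 counts equal 0.187 to 0.287 CPM in iRTE and 0.162 to 0.255 CPM in splenic libraries, which limits counting error only. The iRTE libraries were less alike than the splenic ones, with Spearman correlations across genes of 0.935 to 0.984 within iRTE and 0.991 to 0.994 within splenic cells, and a median gene SD of 0.475 against 0.166 on the log2 CPM scale. iRTE 4 and iRTE 5 stood apart from iRTE 1 to 3, which the sample descriptions also name in another style. What the style marks is not stated. Changes in iRTE 4 and 5 alone are therefore given for named genes whose call was lost, gained or turned there, and for further examples. For some genes the change in iRTE 1 to 3 alone is given as well. Each set was compared with the 5 splenic libraries. iRTE 4 and iRTE 5 were not alike either: the chi-square over degrees of freedom of their counts was 140 between them, 87.6 to 160 between either and iRTE 1 to 3, and 10.3 to 44.9 among iRTE 1 to 3. All levels below are CPM, a gene's share of all counts scaled by TMM, which corrects for differences in library composition.

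Among the 13922 genes tested, 4069 (29.2%) stood higher in iRTE and 4031 (29.0%) stood lower, at an edgeR adjusted p under 0.05, together 58.2%. A change of at least 2-fold was found upward in 15.1% and downward in 17.6%. In 18.6% of genes every iRTE library lay above every splenic library, and in 22.6% every iRTE library lay below. The median log2 change over all genes tested was -0.05. These shares are the background against which each gene list below is read. For iRTE 1 to 3 alone, 4288 of 13617 genes tested were higher and 4617 lower. For iRTE 4 and 5 alone, 3309 of 14576 were higher and 3145 lower. Without iRTE 5, 4209 of 13680 were higher and 4277 lower. Counts in those libraries are read beside these. Fewer genes were called in iRTE 4 and 5 alone, so a call lost there need not mark a difference between the sets. Changes are fitted log2 values of iRTE relative to splenic cells, followed by ± SE from the spread of log2 CPM within the groups. Those log2 CPM hold a prior count of 2. Where a group is near 0 counts, the SE therefore does not measure the uncertainty of the fitted change. Tmsb4x, an actin-binding peptide, gained the most CPM of any gene, averaging 8811 ± 2334 CPM over the iRTE and 4046 ± 537 CPM over the splenic libraries (SD, n = 5 each; 1.12 ± 0.18, edgeR adjusted p = 1.11e-05). Parm1, a membrane mucin, had 7.95, 11.1, 23.8, 16.7 and 16.8 CPM in iRTE 1 to 5, with no count in any splenic library, and was at least 74.7-fold higher. Macf1, which links actin to microtubules, was 7.82-fold lower (-2.97 ± 0.43, edgeR adjusted p = 2.96e-07), with changes of -3.88 in iRTE 1 to 3 alone and -2.19 in iRTE 4 and 5 alone.

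**Figure D1:**
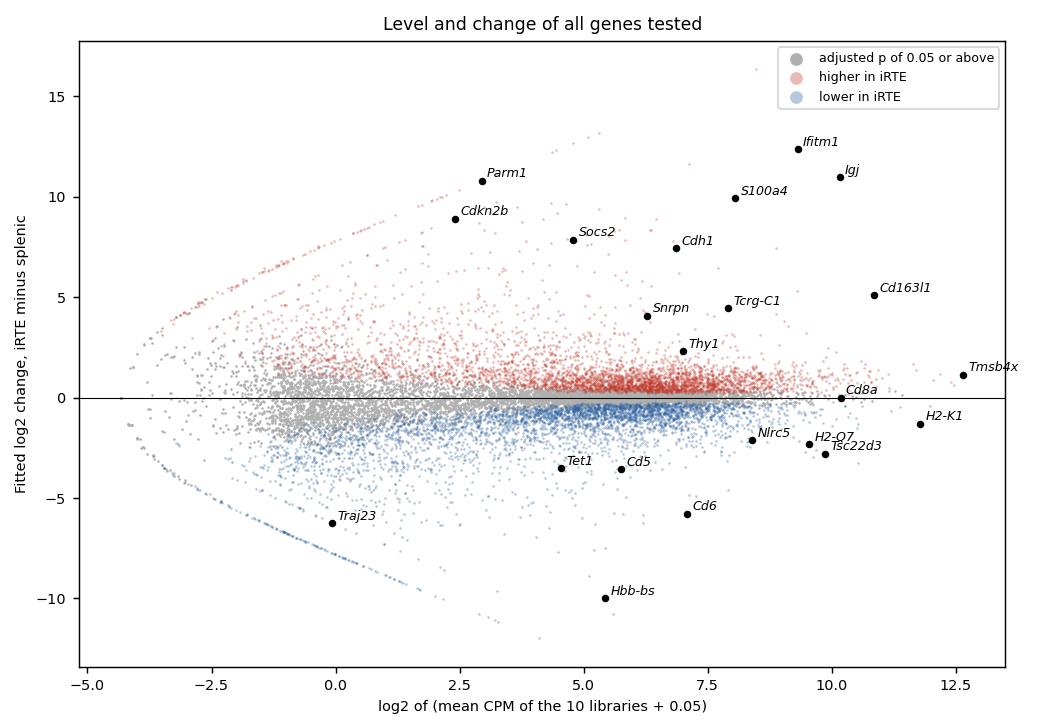
Fitted log2 change of each of the 13922 genes tested (vertical axis, iRTE minus splenic) against the log2 of its mean CPM over the 10 libraries plus 0.05 (horizontal axis). Red points are higher and blue points lower in iRTE at an adjusted p under 0.05, grey points did not pass, and the black points are some of the genes in the text. Igj, S100a4 and Ifitm1 combine high level with large rises, and H2-K1 combines a high level with a value below 0.

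The shared T-cell machinery was present in both groups but for 1 member without a count in any iRTE library, and a few of its parts were far apart. Of 27 members tested, 4 were higher in iRTE, 10 lower and 13 did not pass. The median log2 change was -0.31, or -0.20 where a group without counts was put at its floor. Cd8a had 1351, 1385, 1262, 456 and 1339 CPM in iRTE 1 to 5, against 1144, 1088, 1135, 1181 and 1230 CPM in splenic 1 to 5 (0.00 ± 0.31, edgeR adjusted p = 0.993). iRTE 4 held the lowest Cd8a level of all 10 libraries, and without it Cd8a was higher in iRTE by 0.21 (edgeR adjusted p = 0.0329). Lck, the kinase that starts receptor signalling, averaged 1694 ± 178 CPM over the iRTE and 1895 ± 106 CPM over the splenic libraries (SD, n = 5 each; -0.16 ± 0.07, edgeR adjusted p = 0.124), and was lower by 0.22 without iRTE 4 (edgeR adjusted p = 0.0201). In a bulk sample fewer cells of a type and less RNA per cell cannot be told apart.

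Cd5 and Cd6, related surface receptors that damp T-cell receptor signals, were far lower in iRTE. Cd5 had 13.1, 3.995, 5.75, 10.9 and 7.93 CPM in iRTE 1 to 5, against 102, 91.013, 98.1, 98.5 and 105 CPM in splenic 1 to 5. Every iRTE library lay far below every splenic one, and Cd5 was 11.8-fold lower (-3.56 ± 0.31, edgeR adjusted p = 2.71e-10). Cd6, named here after its values were seen, had 6.13, 13.2, 3.27, 1.87 and 0.32 CPM in iRTE 1 to 5, against 255, 247, 264, 289.8 and 269 CPM in splenic 1 to 5 (-5.79 ± 0.82, edgeR adjusted p = 2.25e-08). The spread within iRTE was wide, from under 1 CPM to above 10, and without iRTE 2 the Cd6 change was -6.60 (edgeR adjusted p = 1.32e-09), beside -5.13 in iRTE 1 to 3 alone and -7.89 in iRTE 4 and 5 alone. Plcg1, the phospholipase downstream of the receptor, fell 2.58-fold (-1.37 ± 0.06, edgeR adjusted p = 1.22e-08). Dgka, the diacylglycerol kinase that opposes that phospholipase, was 2.86-fold lower (-1.51 ± 0.08, edgeR adjusted p = 5.32e-10). Thy1, a glycoprotein of thymocytes and T cells, went the other way, with 180.3, 190.1, 340.1, 157 and 196 CPM in iRTE 1 to 5, against 38.9, 41.2, 40.9, 46.1 and 46.3 CPM in splenic 1 to 5 (2.32 ± 0.20, edgeR adjusted p = 7.82e-09).

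Both groups used the same beta chain segment but differed in the other receptor loci. Trbv14, the segment that the transgenic pmel receptor is known to use, took 96.5% to 98.0% of the Trbv counts in iRTE and 95% to 95.4% in splenic libraries. It was 1.74-fold higher in iRTE, averaging 6885 ± 1369 CPM over the iRTE and 3946 ± 239 CPM over the splenic libraries (SD, n = 5 each; 0.80 ± 0.14, edgeR adjusted p = 2.06e-05). Trbc2, its constant segment, was 1.54-fold higher (0.62 ± 0.15, edgeR adjusted p = 0.000659), and this rise did not pass in iRTE 4 and 5 alone (0.26, edgeR adjusted p = 0.0808). Segments of the same family share sequence, so how the authors' counting divided their reads is uncertain.

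The joining segments and most alpha chain segments were lower in iRTE. Of 236 receptor segments in the files 129 passed the filter on low counts, of which 20 were higher and 90 lower, with a median of -2.46, or -2.23 where a group without counts was put at its floor. Of 41 Traj segments 40 were lower and none higher, and their summed level was 10.6 to 25.1 CPM in iRTE and 89.3 to 115.7 CPM in splenic libraries. Of 14 Trbj segments 11 were lower, the summed level being 83.7 to 411.7 CPM in iRTE and 645 to 734 CPM in splenic libraries. Trbj1-6 had 13.9, 11.9, 13.6, 22.9 and 31.2 CPM in iRTE 1 to 5, against 60.3, 67.9, 69.7, 56.2 and 63.4 CPM in splenic 1 to 5 (-1.76 ± 0.27, edgeR adjusted p = 9.2e-07). Traj23 had 0, 0, 0, 0.0623 and 0 CPM in iRTE 1 to 5, against 1.51, 1.699, 1.76, 1.69 and 2.29 CPM in splenic 1 to 5 (edgeR adjusted p = 9.46e-07), so that 1 count in iRTE 4 was all that iRTE held.

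The counts of alpha variable segments were less evenly divided in iRTE. Of 41 Trav segments tested 30 were lower and 2 higher, with summed levels of 42.5 to 150.5 CPM in iRTE and 109.3 to 120.5 CPM in splenic libraries. Trav21-dv12 led in iRTE 3 with 76.1% of the Trav counts, in iRTE 2 with 63.1% and in iRTE 4 with 17.6%. Trav17 led in iRTE 1 with 17.6%, and Trav13-4-dv7 in iRTE 5 with 25.2%. The leading segment took at most 9.89% in any splenic library. These shares rest on 535 to 1705 Trav counts in an iRTE library and 1480 to 2311 in a splenic one. The summed Trbv level was far above that of Trav, at 5296 to 8600 CPM in iRTE and 3823 to 4393 CPM in splenic libraries. The shares thus describe the few counted Trav reads and may not reflect the main alpha chain of these cells, which was not tested.

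Genes of the gamma receptor locus were higher in iRTE, while the delta variable segments moved both ways, and the sort left out cells with the gamma-delta receptor on their surface. Of 5 Trdv segments tested 2 were higher and 3 lower, and their summed level was 15.7 to 82.7 CPM in iRTE and 40.6 to 46.5 CPM in splenic libraries. All 4 Tcrg constant genes tested rose, and their summed level was 1664 to 2526 CPM in iRTE and 101.6 to 117.5 CPM in splenic libraries. Tcrg-C2 had 1389, 1302, 789, 1324 and 1330 CPM in iRTE 1 to 5, against 28.9, 31.5, 30.7, 30.8 and 32.1 CPM in splenic 1 to 5 (5.32 ± 0.15, edgeR adjusted p = 1.22e-15). Tcrg-C1 was 21.9-fold higher (4.45 ± 0.19, edgeR adjusted p = 1.83e-12) and Tcrg-C4 7.01-fold higher (2.81 ± 0.15, edgeR adjusted p = 6.34e-12), though these genes are close copies and can share reads. Trgv2, a variable segment, had 222, 238, 207, 262 and 267 CPM in iRTE 1 to 5, against 3.51, 2.62, 3.09, 3.14 and 3.65 CPM in splenic 1 to 5, a 74.5-fold rise with no overlap (6.22 ± 0.11, edgeR adjusted p = 1.88e-17).

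Cd163l1, a scavenger receptor known from gamma-delta T cells, had 3113, 2830, 2867, 4249 and 4945 CPM in iRTE 1 to 5, against 101, 97.2, 109, 108 and 111 CPM in splenic 1 to 5 (5.10 ± 0.17, edgeR adjusted p = 2.53e-14). The groups were 34.3-fold apart and did not overlap. The gamma-delta and innate-like list, with 11 genes tested, held 6 rises and 3 falls, with a median of 2.81. Whether the gamma transcripts came from alpha-beta cells or from other cells was not tested.

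Markers of other cell types were low, with a few exceptions in both groups. Cd74, the class II invariant chain, had 0.958, 1.33, 0.177, 0 and 1.41 CPM in iRTE 1 to 5, against 19.6, 38.3, 19.9, 26.2 and 44.6 CPM in splenic 1 to 5 (-5.26 ± 0.74, edgeR adjusted p = 4.13e-06). Of the 24 class II and B-lineage genes tested 18 were lower and 3 higher in iRTE, with a median of -3.22, or -2.98 with groups without counts at their floor. Their summed level was nonetheless 1315 to 1746 CPM in iRTE and 994 to 1210 CPM in splenic libraries, carried by Ighm, the mu heavy chain gene, at 1230 to 1638 CPM in iRTE and 731 to 875 CPM in splenic libraries (0.89 ± 0.09, edgeR adjusted p = 2.56e-07). Igj, the chain that joins antibody molecules, had 2510, 1830, 1118, 1969 and 3992 CPM in iRTE 1 to 5, against 0.648, 3.54, 0.914, 0.302 and 0.34 CPM in splenic 1 to 5 (10.97 ± 0.63, edgeR adjusted p = 1.37e-11), and the change was 12 without splenic 2.

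The erythroid and platelet list fell in 5 of 8 tested genes and rose in 1. Hbb-bs, a beta globin, had 0, 0, 0, 0.187 and 0.128 CPM in iRTE 1 to 5, against 80.4, 97.9, 82.2, 92.2 and 76.4 CPM in splenic 1 to 5 (-9.98 ± 0.28, edgeR adjusted p = 1.47e-11), or -10.76 without iRTE 4. Gata1, the erythroid and mast cell factor, rose 6.86-fold, with 60.3, 64.5, 85.9, 64.2 and 63.9 CPM in iRTE 1 to 5, against 14.8, 10.3, 8.58, 8.75 and 6.71 CPM in splenic 1 to 5 (2.78 ± 0.21, edgeR adjusted p = 4.15e-10). Of 11 stromal genes tested Thy1 alone rose, and 2 fell. Of 6 thymic epithelial genes tested Cdh1 alone rose, and 1 fell. Cdh1, the adhesion molecule E-cadherin, had 417, 262, 120.1, 218 and 143 CPM in iRTE 1 to 5, against 1.03, 0.92, 2.39, 0.965 and 1.44 CPM in splenic 1 to 5 (7.44 ± 0.40, edgeR adjusted p = 7.35e-12). The part of other cell types in these differences was not tested.

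**Figure D2:**
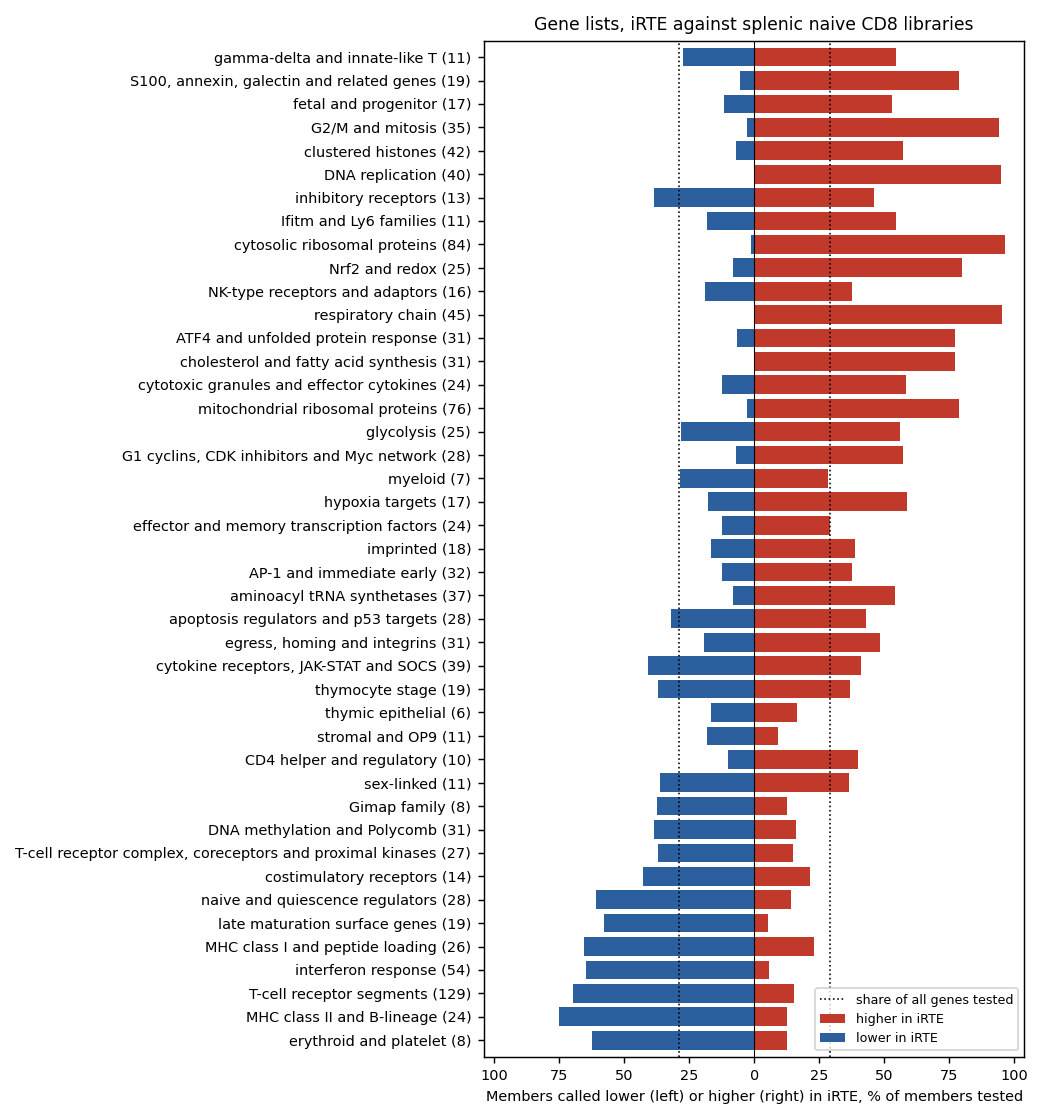
Share of the members tested in each gene list that were called higher (red, to the right) or lower (blue, to the left) in iRTE at an adjusted p under 0.05, with the number of members tested in brackets and lists ordered by median change. Dotted lines mark the shares over all 13922 genes, 29.2% and 29.0%. The lists of cytosolic ribosomal proteins, respiratory chain, DNA replication and mitosis lie almost wholly to the right, and the interferon, class I and T-cell receptor segment lists mostly to the left.

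Regulators of the naive state were lower more often than higher, and Tcf7 did not pass the test. Of 28 members tested, 4 were higher in iRTE, 17 lower and 7 did not pass, with a median log2 change of -0.48. Tcf7, the factor of stem-like and naive T cells, had 1467, 1451, 1240, 1760 and 1319 CPM in iRTE 1 to 5, against 1437, 1401, 1444, 1452 and 1441 CPM in splenic 1 to 5 (0.01 ± 0.09, edgeR adjusted p = 0.915). The groups overlapped throughout, and the 95% interval of the log2 difference in limma was -0.17 to 0.18. Lef1, its partner at many of the same sites, had 186, 265, 284, 406 and 251 CPM in iRTE 1 to 5, against 665, 703, 729, 755 and 634 CPM in splenic 1 to 5 (-1.32 ± 0.19, edgeR adjusted p = 3.93e-07). All iRTE libraries lay below all splenic ones, and iRTE 4 came nearest.

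Bach2, a repressor that holds back effector genes, fell to 69.976 ± 17.8 CPM in iRTE, against 151 ± 11.4 CPM in splenic cells (SD, n = 5 each; -1.11 ± 0.17, edgeR adjusted p = 1.62e-05). Satb1, a chromatin organiser of thymocytes, was 1.84-fold lower (-0.88 ± 0.13, edgeR adjusted p = 2.38e-06), and Runx1 4.12-fold lower (-2.04 ± 0.16, edgeR adjusted p = 4.86e-10). Foxp1, a quiescence factor, fell by 0.44 with overlapping groups (edgeR adjusted p = 0.0106) and did not pass in iRTE 4 and 5 alone (-0.28, edgeR adjusted p = 0.129). Tsc22d3, a leucine zipper protein induced by glucocorticoids and Foxo factors, had 262, 258, 238, 287 and 143 CPM in iRTE 1 to 5, against 1571, 1641, 1572, 1598 and 1798 CPM in splenic 1 to 5. It had the fourth largest loss in CPM among the genes tested (-2.78 ± 0.18, edgeR adjusted p = 1.47e-11). Id3, an inhibitor of E proteins that rises on receptor signals, was the opposite case, with 277, 252, 354, 199.9 and 308 CPM in iRTE 1 to 5, against 83.1, 76.4, 75.9, 87.4 and 96.4 CPM in splenic 1 to 5 (1.73 ± 0.15, edgeR adjusted p = 1.14e-08).

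The surface genes that mark late maturation were also lower. Of 19 members tested, 1 was higher in iRTE, 11 lower and 7 did not pass, with a median log2 change of -0.66. H2-Q7, which encodes Qa2, had 349, 274, 309.8, 96.012 and 224 CPM in iRTE 1 to 5, against 1253, 1219, 1262, 1222 and 1265 CPM in splenic 1 to 5. No iRTE library reached the level of any splenic one, and iRTE 4 held the least (-2.31 ± 0.33, edgeR adjusted p = 2.28e-07). H2-Q4, a neighbour in the same gene cluster, was 7.12-fold lower (-2.83 ± 0.34, edgeR adjusted p = 4.28e-07), with the reservation that the Q genes are near-identical copies whose reads can be shared.

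Dapl1 and Cd55 differed widely within iRTE. Dapl1, abundant in resting CD8+ cells, had 3.45, 1.69, 1.24, 22.1 and 1.09 CPM in iRTE 1 to 5, against 46.5, 41.9, 41.3, 56.5 and 43.4 CPM in splenic 1 to 5 (-2.93 ± 0.78, edgeR adjusted p = 0.000533), and the change was -4.64 without iRTE 4 (edgeR adjusted p = 2.08e-09). Cd55, a complement regulator gained late in maturation, had 39.8, 35.7, 26.1, 128 and 18.7 CPM in iRTE 1 to 5, against 52.1, 52.9, 52.9, 53.7 and 52.7 CPM in splenic 1 to 5. Only iRTE 4 exceeded the splenic level, so the change was -0.09 with it (edgeR adjusted p = 0.849) and -0.82 without it (edgeR adjusted p = 0.00181). The survival gene Bcl2 was the 1 member of the list that rose, averaging 498 ± 103 CPM over the iRTE and 304 ± 31.5 CPM over the splenic libraries (SD, n = 5 each; 0.71 ± 0.14, edgeR adjusted p = 8.95e-05).

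**Figure D3:**
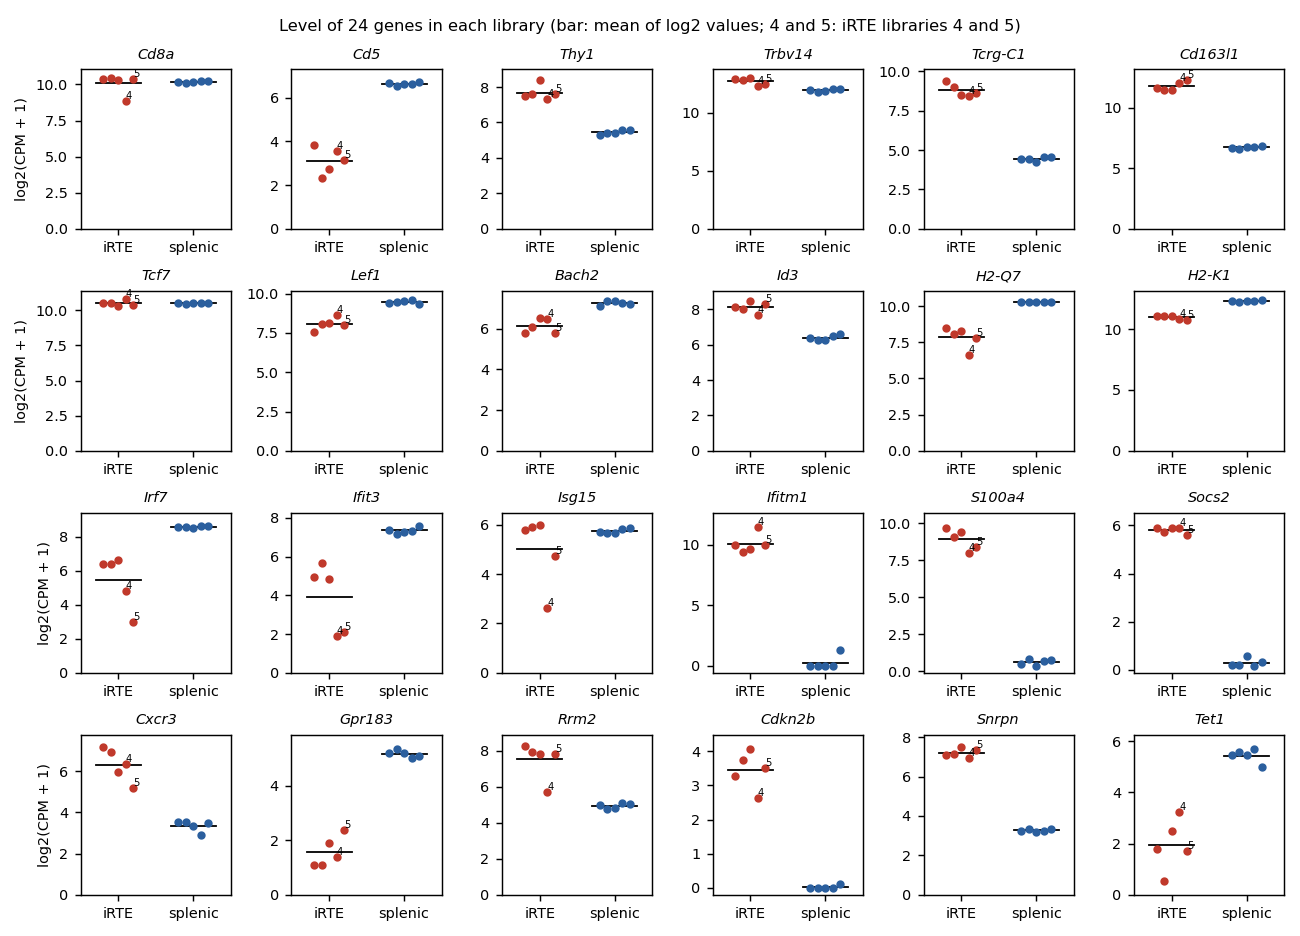
Level of 24 genes in each library, as log2(CPM + 1) on the vertical axis, with iRTE libraries in red on the left, splenic libraries in blue on the right, the mean of the log2 values as a bar, and iRTE libraries 4 and 5 numbered. Cd8a and Tcf7 overlap between the groups, S100a4, Socs2 and Ifitm1 are close to absent in splenic cells, and Irf7, Ifit3 and Isg15 are lowest in iRTE 4 and 5.

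Most genes of the interferon response list were lower in iRTE, most of all in iRTE 4 and 5. The list leaves out the Ifitm and Ly6 families described below, of whose 11 members tested 6 were higher and 2 lower. Of 54 members tested, 3 were higher in iRTE, 35 lower and 16 did not pass, with a median log2 change of -0.70. In iRTE 1 to 3 alone 8 were higher and 31 lower, with a median of -0.52, and in iRTE 4 and 5 alone 1 was higher and 44 lower, with a median of -1.43. The summed level of the list was 8835, 9322 and 8189 CPM in iRTE 1 to 3 and 5322 and 6585 CPM in iRTE 4 and 5, against 10747 to 11105 CPM in splenic libraries.

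Many promoters of this list share a sequence element. The window from 250 bases before to 50 bases after the gene's start was searched on both strands for the interferon-stimulated response element, written as GAAA, any 2 bases and GAAA, in RefSeq promoters of build GRCm38.p6. It was found in 21 of 41 interferon list genes with a window (51.2%), in 5 of 20 class I genes (25%), and in 3.99% of all 27025 genes of the promoter table, or 3.84% of the genes tested with a window. Genes higher in iRTE held it in 4.2% and genes lower in 4.0%, so over all genes it did not go with the direction. A match is a description of the letters only. The windows of 4 members that differ in their response are shown, with matches in capitals: Ifit1 at chr19:34640639-34640938 on the plus strand, Ifit3 at chr19:34583279-34583578 on the plus strand, Isg15 at chr4:156200769-156201068 on the minus strand with 3 overlapping matches, and Gbp2 at chr3:142620413-142620712 on the plus strand.
Ifit1: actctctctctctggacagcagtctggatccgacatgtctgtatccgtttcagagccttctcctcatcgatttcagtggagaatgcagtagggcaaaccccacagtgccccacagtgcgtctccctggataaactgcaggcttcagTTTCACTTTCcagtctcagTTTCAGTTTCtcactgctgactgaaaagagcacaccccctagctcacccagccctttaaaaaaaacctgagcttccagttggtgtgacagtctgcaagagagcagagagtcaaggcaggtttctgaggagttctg
Ifit3: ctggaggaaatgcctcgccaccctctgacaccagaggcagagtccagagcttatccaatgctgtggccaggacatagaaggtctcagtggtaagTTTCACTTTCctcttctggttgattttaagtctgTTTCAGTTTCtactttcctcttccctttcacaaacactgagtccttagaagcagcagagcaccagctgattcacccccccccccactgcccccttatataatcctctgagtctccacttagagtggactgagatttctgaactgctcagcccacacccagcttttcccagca
Isg15: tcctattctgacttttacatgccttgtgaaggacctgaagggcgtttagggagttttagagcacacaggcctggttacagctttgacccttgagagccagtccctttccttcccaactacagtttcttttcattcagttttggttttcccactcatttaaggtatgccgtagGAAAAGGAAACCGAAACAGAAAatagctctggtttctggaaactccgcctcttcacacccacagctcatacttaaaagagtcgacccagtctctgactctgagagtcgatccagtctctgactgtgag
Gbp2: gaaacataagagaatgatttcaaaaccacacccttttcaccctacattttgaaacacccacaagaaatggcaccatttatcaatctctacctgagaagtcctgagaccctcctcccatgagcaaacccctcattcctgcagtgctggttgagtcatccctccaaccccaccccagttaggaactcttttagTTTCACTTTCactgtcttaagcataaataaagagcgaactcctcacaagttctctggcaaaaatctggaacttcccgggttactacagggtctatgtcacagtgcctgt

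These 4 genes did not move alike. Ifit3, an interferon-induced RNA-binding protein of the antiviral response, had 30.2, 49.8, 28.1, 2.68 and 3.33 CPM in iRTE 1 to 5, against 165, 145, 157, 162 and 189 CPM in splenic 1 to 5 (-2.85 ± 0.87, edgeR adjusted p = 0.00036). Its relative Ifit1 had 82.6, 103, 72.4, 9.03 and 15.8 CPM in iRTE 1 to 5, against 215, 211, 217, 217 and 227 CPM in splenic 1 to 5 (-1.95 ± 0.71, edgeR adjusted p = 0.00155). For both, iRTE 1 to 3 lay below the splenic libraries and iRTE 4 and 5 far below, with changes of -2.18 and -1.33 in iRTE 1 to 3 alone and -5.76 and -4.12 in iRTE 4 and 5 alone.

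Isg15, a ubiquitin-like modifier, had 53.8, 58.6, 62.8, 5.23 and 25.6 CPM in iRTE 1 to 5, against 51.6, 50.036, 49.989, 56.4 and 58.004 CPM in splenic 1 to 5 (-0.37 ± 0.67, edgeR adjusted p = 0.42). iRTE 1 to 3 lay within or just above the range of the splenic libraries, and the gene was lower in iRTE 4 and 5 alone (-1.78, edgeR adjusted p = 0.00196). Gbp2, a guanylate-binding protein induced by interferon gamma, had 286, 346, 348, 69.4 and 123 CPM in iRTE 1 to 5, against 169.8, 148, 144, 167 and 154 CPM in splenic 1 to 5 (0.58 ± 0.47, edgeR adjusted p = 0.0972). It was higher in iRTE 1 to 3 alone (1.06, edgeR adjusted p = 2.94e-08), higher without iRTE 4 (0.82) or iRTE 5 (0.74), and lower in iRTE 4 and 5 alone (-0.70, edgeR adjusted p = 0.00438). Ifi47, another interferon gamma target, showed the same split, at 0.38 in iRTE 1 to 3 and -0.52 in iRTE 4 and 5 (edgeR adjusted p = 0.00076 and 0.000481).

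Irf7, the factor that amplifies type I interferon, had 81.6, 81.951, 95.8, 26.9 and 7.04 CPM in iRTE 1 to 5, against 375, 373, 364, 386 and 397 CPM in splenic 1 to 5. It was 6.48-fold lower in iRTE without overlap (-2.70 ± 0.71, edgeR adjusted p = 2.46e-05), with changes of -2.13 in iRTE 1 to 3 alone and -4.47 in iRTE 4 and 5 alone. Iigp1, an interferon-induced GTPase, was 40.8-fold lower, at 0.128 to 2.49 CPM in iRTE and 49.2 to 62.4 CPM in splenic libraries (-5.35 ± 0.59, edgeR adjusted p = 2.42e-08). Usp18, which removes Isg15 from proteins and shuts down interferon signalling, was 4.47-fold lower (-2.16 ± 0.22, edgeR adjusted p = 3.43e-08). Samhd1, which degrades nucleotides, was 1 of 3 members that were higher, averaging 896 ± 136 CPM over the iRTE and 312 ± 10.7 CPM over the splenic libraries (SD, n = 5 each; 1.52 ± 0.10, edgeR adjusted p = 2.49e-10).

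The class I antigen presentation genes fell with them. Of 26 members tested, 6 were higher in iRTE, 17 lower and 3 did not pass, with a median log2 change of -0.68. H2-K1, a classical class I heavy chain, had 2201, 2095, 2162, 1851 and 1733 CPM in iRTE 1 to 5, against 4907, 4755, 4909, 5029 and 5372 CPM in splenic 1 to 5, the largest loss in CPM of any gene tested. The iRTE libraries were close to each other and all lay far below the splenic ones (-1.31 ± 0.07, edgeR adjusted p = 4.43e-10). H2-D1, the other classical chain, fell less, by 0.42 ± 0.09 (edgeR adjusted p = 0.00102). Nlrc5, the transactivator of class I genes, was 4.38-fold lower, averaging 125 ± 25.3 CPM over the iRTE and 547 ± 53.7 CPM over the splenic libraries (SD, n = 5 each; -2.13 ± 0.16, edgeR adjusted p = 2.34e-10).

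Tap1, the peptide transporter, was 2.08-fold lower (-1.05 ± 0.18, edgeR adjusted p = 3.02e-06). The proteasome subunits used in antigen processing rose instead, Psmb10 by 1.04 ± 0.19 (edgeR adjusted p = 2.4e-05) and Psmb8 by 0.91 ± 0.25 (edgeR adjusted p = 0.000359). The rise of Psmb8 did not pass in iRTE 4 and 5 alone (0.33, edgeR adjusted p = 0.0754). B2m, the light chain, had 3254, 2912, 3630, 2086 and 1897 CPM in iRTE 1 to 5, against 2357, 2374, 2040, 1983 and 2337 CPM in splenic 1 to 5 (0.31 ± 0.19, edgeR adjusted p = 0.109), and was higher without iRTE 4 (0.40, edgeR adjusted p = 0.037) or iRTE 5 (0.42, edgeR adjusted p = 0.0222).

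**Figure D4:**
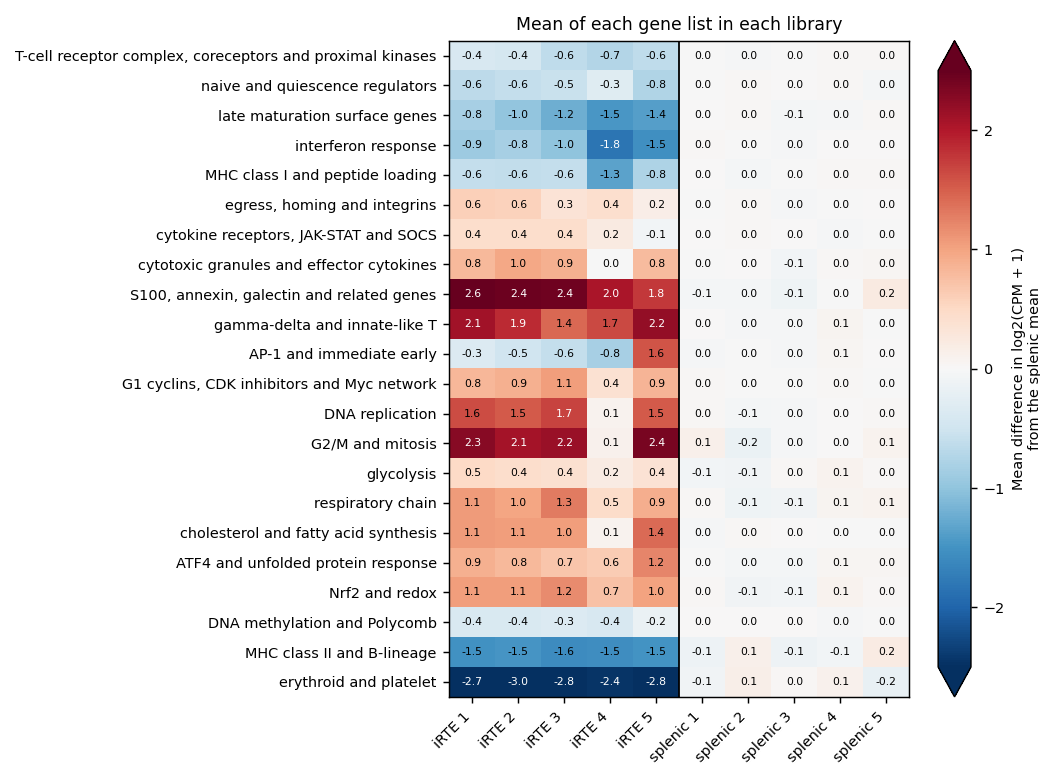
Mean difference of each gene list from the splenic mean in each library, in log2(CPM + 1), with iRTE 1 to 5 left of the line and splenic 1 to 5 right of it. Red is higher and blue is lower than the splenic mean. Splenic libraries stay near 0, iRTE 4 lies near 0 in DNA replication and mitosis where the other iRTE libraries are at 1.5 or above, and iRTE 5 alone is high in immediate early genes.

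Egress and homing receptors and integrins were more often higher than lower in iRTE. Of 31 members tested, 15 were higher in iRTE, 6 lower and 10 did not pass, with a median log2 change of 0.21. Cxcr3, a receptor for interferon-induced chemokines, had 143, 121, 62.7, 81.9 and 34.993 CPM in iRTE 1 to 5, against 10.6, 10.5, 9.21, 6.395 and 10.2 CPM in splenic 1 to 5. All iRTE libraries lay well above all splenic ones (3.24 ± 0.38, edgeR adjusted p = 3.34e-08). Ccr4, a receptor of skin-homing and helper cells, was 23.5-fold higher, at 50.973 to 78.6 CPM in iRTE and 1.19 to 4.95 CPM in splenic libraries (4.56 ± 0.38, edgeR adjusted p = 2.94e-10). Cxcr6, found on tissue-resident cells, was 2.82-fold higher (1.49 ± 0.15, edgeR adjusted p = 1.74e-08).

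Itgb7, the beta chain of gut-homing integrins, had 2349, 2285, 2868, 2052 and 1628 CPM in iRTE 1 to 5, against 1242, 1256, 1351, 1284 and 1422 CPM in splenic 1 to 5 (0.77 ± 0.14, edgeR adjusted p = 1.36e-05). Its partner Itgae, which encodes CD103, the alpha chain of the integrin that binds E-cadherin, rose by 0.72 ± 0.27 with overlap between the groups (edgeR adjusted p = 0.0024). The rise of Itgae did not pass in iRTE 4 and 5 alone (0.10, edgeR adjusted p = 0.618). Gpr183, the oxysterol receptor that positions lymphocytes, was 15.8-fold lower, at 1.15 to 4.22 CPM in iRTE and 30.8 to 39.8 CPM in splenic libraries (-3.98 ± 0.35, edgeR adjusted p = 1.28e-07). Cxcr4, the receptor for the chemokine of bone marrow and thymus stroma, was 7.02-fold lower (-2.81 ± 0.50, edgeR adjusted p = 2.7e-06), and its change was -3.53 without iRTE 5.

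Cytokine receptors and their feedback genes were split evenly. Of 39 members tested, 16 were higher in iRTE, 16 lower and 7 did not pass, with a median log2 change of 0.21. Socs2, a feedback inhibitor induced by STAT5, had 57.972, 51.4, 59.026, 58.2 and 47.5 CPM in iRTE 1 to 5, against 0.162, 0.142, 0.492, 0.121 and 0.255 CPM in splenic 1 to 5. The iRTE libraries lay within a narrow band and the splenic ones below 1 CPM (7.86 ± 0.24, edgeR adjusted p = 5.79e-15). Cish, another STAT5 target, had 151, 133, 183, 54.8 and 68.1 CPM in iRTE 1 to 5, against 30.1, 37.6, 32.9, 25.9 and 32.4 CPM in splenic 1 to 5 (1.89 ± 0.35, edgeR adjusted p = 1.1e-05), with changes of 2.29 in iRTE 1 to 3 alone and 0.96 in iRTE 4 and 5 alone. Socs1 was 3.80-fold higher (1.92 ± 0.23, edgeR adjusted p = 6.08e-08), while Socs3 fell by 0.54 ± 0.15 with overlapping groups (edgeR adjusted p = 0.000801).

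Among the receptors, Il2ra, the high-affinity chain for interleukin-2, had 54.1, 131, 182, 16.6 and 88.3 CPM in iRTE 1 to 5, against 4.16, 4.53, 4.01, 3.499 and 4.16 CPM in splenic 1 to 5. It varied widely in iRTE and lay above every splenic library in each (4.53 ± 0.60, edgeR adjusted p = 7.61e-08). Il12rb2, the signalling chain for interleukin-12, was 13.4-fold higher (3.75 ± 0.41, edgeR adjusted p = 9.58e-09), Ifngr1, the ligand-binding chain for interferon gamma, 4.91-fold higher (2.30 ± 0.13, edgeR adjusted p = 9.09e-12), and Il4ra 1.77-fold higher (0.83 ± 0.13, edgeR adjusted p = 3.73e-05). Il6st, the shared chain of the interleukin-6 family, was 6.59-fold lower (-2.72 ± 0.12, edgeR adjusted p = 4.91e-10). Il6ra fell by 1.21 ± 0.47 (edgeR adjusted p = 0.00427), with a change of -2.19 in iRTE 1 to 3 alone, and did not pass in iRTE 4 and 5 alone (-0.41, edgeR adjusted p = 0.0889).

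Cytotoxic and effector genes were more often higher than lower. Of 24 members tested, 14 were higher in iRTE, 3 lower and 7 did not pass, with a median log2 change of 0.89. The summed level of the list was 2922 CPM in iRTE 4 and 3923 to 4965 CPM in the other iRTE libraries, against 2678 to 3157 CPM in splenic libraries, so that iRTE 4 lay within the splenic range. In iRTE 4 and 5 alone 10 were higher and 5 lower. Ccl5, an inflammatory chemokine stored by memory cells, had 122, 127, 96.5, 115 and 27.6 CPM in iRTE 1 to 5, against 1.62, 1.27, 1.55, 1.57 and 0.934 CPM in splenic 1 to 5 (6.11 ± 0.44, edgeR adjusted p = 2.78e-10). Lamp1, a granule membrane protein, was 2.02-fold higher (1.02 ± 0.08, edgeR adjusted p = 1.04e-08), and Nkg7, a granule protein, 2.00-fold higher (1.00 ± 0.23, edgeR adjusted p = 0.000121). Prf1, which encodes perforin, moved the other way, with 8.14, 11.5, 16.018, 6.67 and 3.52 CPM in iRTE 1 to 5, against 55.6, 57.7, 61.9, 59.1 and 77.5 CPM in splenic 1 to 5 (-2.78 ± 0.37, edgeR adjusted p = 2.24e-07). Gzmm, a granzyme, was lower with overlap, at 0.0888 to 2.04 CPM in iRTE and 1.62 to 3.06 CPM in splenic libraries (-1.63 ± 0.68, edgeR adjusted p = 0.00854).

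The S100, annexin and galectin genes rose in nearly all cases. Of 19 members tested, 15 were higher in iRTE, 1 lower and 3 did not pass, with a median log2 change of 2.38. S100a4, a calcium-binding protein of effector and memory cells, had 833, 538, 679.6, 259 and 338 CPM in iRTE 1 to 5, against 0.378, 0.778, 0.281, 0.603 and 0.679 CPM in splenic 1 to 5. Splenic libraries stayed below 1 CPM and every iRTE library was above 200 CPM (9.93 ± 0.38, edgeR adjusted p = 1.14e-12). Lgals3, which encodes galectin-3, had 184, 166, 158, 119 and 178 CPM in iRTE 1 to 5, against 0.108, 0.566, 0.352, 0.241 and 1.44 CPM in splenic 1 to 5 (8.33 ± 0.47, edgeR adjusted p = 5.1e-13), with a change of 9.04 without splenic 5.

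S100a6 was 88.9-fold higher (6.47 ± 0.48, edgeR adjusted p = 1.01e-10), Lgals1 9.07-fold higher (3.18 ± 0.25, edgeR adjusted p = 7.24e-10), Anxa2 9.12-fold higher (3.19 ± 0.53, edgeR adjusted p = 4.8e-07) and Crip1 2.18-fold higher (1.12 ± 0.21, edgeR adjusted p = 3.41e-05). Itm2a, a membrane protein switched on during thymic selection, was the 1 member that fell (-1.12 ± 0.20, edgeR adjusted p = 1.09e-05). In 13 of the 19 members every iRTE library lay above every splenic library.

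Of the Ifitm and Ly6 families, some of which interferon induces, more members were higher than lower in iRTE. Of 11 members tested 6 were higher and 2 lower, with a median of 1.36. Ifitm1, an interferon-induced membrane protein, had 1045, 667, 828, 2797 and 1015 CPM in iRTE 1 to 5, against 0, 0, 0, 0 and 1.44 CPM in splenic 1 to 5 (12.37 ± 0.79, edgeR adjusted p = 8.86e-11). All splenic counts were in splenic 5, and without it the fitted change was 17.21, set by the prior count. Ifitm2 had 294, 310.0, 459, 236 and 95.8 CPM in iRTE 1 to 5, against 0, 0, 0, 0.0603 and 0.425 CPM in splenic 1 to 5 (11.61 ± 0.55, edgeR adjusted p = 1.2e-11), or 13.50 without splenic 5. Ifitm3 rose by 4.18 ± 0.86, and by 2.61 without iRTE 4, which held 164 CPM (edgeR adjusted p = 7.72e-05 and 1.22e-05). Members of this family are similar in sequence and can share reads.

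Ifitm10 fell, at 0 to 0.355 CPM in iRTE and 8.49 to 12.8 CPM in splenic libraries (-6.32 ± 0.39, edgeR adjusted p = 1.94e-08), or by 7 without iRTE 2. Ly6a, the stem cell antigen Sca-1 of activated lymphocytes, was 4.64-fold higher (2.21 ± 0.40, edgeR adjusted p = 2.41e-06) and Ly6e 2.19-fold higher (1.13 ± 0.16, edgeR adjusted p = 2.07e-06). Of 8 Gimap genes, GTPases of lymphocyte survival, 1 was higher and 3 lower, with a median of -0.23. Gimap3 was 2.29-fold lower (-1.20 ± 0.09, edgeR adjusted p = 6.37e-09) and Gimap8 3.66-fold lower (-1.87 ± 0.12, edgeR adjusted p = 2.09e-08). Gimap1 rose by 0.39 ± 0.14 (edgeR adjusted p = 0.00778), which did not pass in iRTE 4 and 5 alone (0.18, edgeR adjusted p = 0.189). Gimap4 changed by 0.06 over all (edgeR adjusted p = 0.774), by 0.35 in iRTE 1 to 3 and by -0.51 in iRTE 4 and 5 (edgeR adjusted p = 0.00107 and 0.00233).

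Transcription factors of effector and memory cells did not pass the test in most cases over the 5 iRTE libraries. Of 24 members tested, 7 were higher in iRTE, 3 lower and 14 did not pass, with a median log2 change of 0.51. The share of rises was near the 29.2% of all genes tested. In iRTE 1 to 3 alone 11 were higher and 8 lower. With the replicate number as a block in the 10 libraries alone, the median was -0.06. Nfil3, a factor of innate lymphocytes, had 42.6, 43.7, 53.008, 16.012 and 46.7 CPM in iRTE 1 to 5, against 3.83, 2.55, 2.74, 2.35 and 2.63 CPM in splenic 1 to 5 (3.83 ± 0.33, edgeR adjusted p = 1.1e-09). Gata3 was 2.18-fold higher (1.12 ± 0.08, edgeR adjusted p = 9.57e-09) and Ikzf2, which encodes Helios, 3.43-fold higher (1.78 ± 0.42, edgeR adjusted p = 9.11e-05), by 1.06 in iRTE 1 to 3 and 2.45 in iRTE 4 and 5. Tox fell by 1.41 ± 0.07 (edgeR adjusted p = 3.54e-10) and Id2 by 1.42 ± 0.48 (edgeR adjusted p = 0.000403). Irf8, a factor of B and myeloid cells, had 9.97, 5.33, 3.81, 2.06 and 0.576 CPM in iRTE 1 to 5, against 5.72, 4.6002, 3.02, 4.95 and 4.93 CPM in splenic 1 to 5 (-0.11 ± 0.67, edgeR adjusted p = 0.853), and was lower in iRTE 4 and 5 alone (-1.80, edgeR adjusted p = 0.00593). Without iRTE 5 the list held 10 rises and 7 falls.

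Receptors shared with natural killer cells were mixed. Of 16 members tested, 6 were higher in iRTE, 3 lower and 7 did not pass, with a median log2 change of 1.09. In iRTE 1 to 3 alone 10 were higher and 3 lower, and in iRTE 4 and 5 alone 3 were higher and 4 lower. Cd160, an activating and inhibitory receptor, had 317, 274, 243, 20.1 and 98.2 CPM in iRTE 1 to 5, against 46.5, 45.3, 40.006, 45.4 and 49.9 CPM in splenic 1 to 5 (2.07 ± 0.74, edgeR adjusted p = 0.000403), high in iRTE 1 to 3, and its change was 0.38 in iRTE 4 and 5 alone (edgeR adjusted p = 0.375). Fcer1g, a signalling adaptor, was 9.46-fold higher at a low level, 1.87 to 9.65 CPM in iRTE and 0.352 to 0.905 CPM in splenic libraries (3.24 ± 0.44, edgeR adjusted p = 4.58e-06). Klrd1 rose by 0.73 ± 0.19 (edgeR adjusted p = 0.000755), which missed the threshold with iRTE 4 and 5 alone (0.47, edgeR adjusted p = 0.0631), and Cd226 was 3.24-fold lower (-1.70 ± 0.31, edgeR adjusted p = 5.28e-06).

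Inhibitory receptors rose in 6 of 13 tested genes and fell in 5, with a median of 1.36. In iRTE 4 and 5 alone 3 rose and 6 fell, with a median of 0.00. With the replicate number as a block, 4 of 11 tested rose and 5 fell, with a median of -0.52. Ctla4, which competes with Cd28 for ligands, had 158, 203, 162, 144 and 134 CPM in iRTE 1 to 5, against 2.75, 3.89, 3.59, 3.26 and 3.74 CPM in splenic 1 to 5 (5.54 ± 0.13, edgeR adjusted p = 7.27e-16). The groups were 46.7-fold apart. Nt5e, which encodes the ectoenzyme CD73, was 3.98-fold higher (1.99 ± 0.19, edgeR adjusted p = 4.41e-08). Of 14 costimulatory receptors 3 rose and 6 fell. Tnfrsf1b, a receptor for tumour necrosis factor, was 2.19-fold higher (1.13 ± 0.23, edgeR adjusted p = 1.56e-05), Cd27 1.68-fold lower with overlap (-0.75 ± 0.22, edgeR adjusted p = 0.000896), and Cd28 had 31.2, 31.963, 31.1, 30.8 and 42.2 CPM in iRTE 1 to 5, against 31.1, 41.7, 37.2, 32.8 and 38.047 CPM in splenic 1 to 5 (-0.11 ± 0.12, edgeR adjusted p = 0.45).

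Genes of DNA replication and mitosis were higher in iRTE, with iRTE 4 far below the other iRTE libraries. Of 40 replication genes tested 38 were higher and none lower, with a median of 1.40, and of 35 mitosis genes 33 were higher and 1 lower, with a median of 2.18. Their summed levels in iRTE 4 were 2122 and 726 CPM. The other 4 iRTE libraries held 4653 to 5247 and 2110 to 2466 CPM, and splenic libraries 1738 to 1883 and 449.7 to 548.8 CPM.

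The same promoter windows were searched on both strands for E2F elements, written as TTTCCCGC and TTTGGCGC, which occur in genes that are switched on at the start of DNA synthesis. They were found in 10 of 32 replication genes with a window (31.2%), in 0 of 29 mitosis genes, and in 1.8% of all 27025 genes. Among the genes tested with a window 3.54% held a match. Those higher in iRTE held a match in 4.1% and those lower in 3.1%. A window is shown for a member that rose and for one that did not pass, with the match in capitals: Mcm5 at chr8:75109259-75109558 on the plus strand and Rfc3 at chr5:151651159-151651458 on the minus strand.
Mcm5: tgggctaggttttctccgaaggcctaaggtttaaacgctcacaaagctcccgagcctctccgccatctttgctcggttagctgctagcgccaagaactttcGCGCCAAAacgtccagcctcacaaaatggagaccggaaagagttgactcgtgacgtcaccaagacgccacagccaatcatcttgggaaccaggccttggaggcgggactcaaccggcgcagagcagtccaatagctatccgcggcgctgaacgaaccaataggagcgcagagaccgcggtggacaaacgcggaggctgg
Rfc3: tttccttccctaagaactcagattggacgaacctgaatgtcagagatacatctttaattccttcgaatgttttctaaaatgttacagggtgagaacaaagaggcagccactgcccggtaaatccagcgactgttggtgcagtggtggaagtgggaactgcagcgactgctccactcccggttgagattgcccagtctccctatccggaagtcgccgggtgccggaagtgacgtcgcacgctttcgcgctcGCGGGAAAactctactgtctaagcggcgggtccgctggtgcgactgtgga

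Mcm5, a subunit of the replicative helicase, had 323, 316, 368, 132 and 279 CPM in iRTE 1 to 5, against 91.4, 70.4, 71.8, 80.5 and 82.2 CPM in splenic 1 to 5. All iRTE libraries lay above all splenic ones, and iRTE 4 was nearest (1.84 ± 0.27, edgeR adjusted p = 1.45e-07). Rfc3, a subunit of the clamp loader, had 33.6, 23.8, 30.5, 6.98 and 33.6 CPM in iRTE 1 to 5, against 18.4, 15.9, 15.3, 15.023 and 20.1 CPM in splenic 1 to 5 (0.60 ± 0.44, edgeR adjusted p = 0.0619), and was higher without iRTE 4 (0.84, edgeR adjusted p = 1.55e-05). Rrm2, which makes deoxynucleotides, was 7.02-fold higher (2.81 ± 0.46, edgeR adjusted p = 2.79e-07) and Top2a, a topoisomerase of dividing cells, 4.47-fold higher (2.16 ± 0.40, edgeR adjusted p = 1.92e-06). Cdc25b, a phosphatase that drives entry into mitosis, was 3.19-fold higher (1.67 ± 0.14, edgeR adjusted p = 1.05e-09). Kif23, a kinesin of cytokinesis, was the 1 mitosis gene that fell, averaging 25.8 ± 8.65 CPM over the iRTE and 56.2 ± 2.04 CPM over the splenic libraries (SD, n = 5 each; -1.12 ± 0.28, edgeR adjusted p = 5.91e-05).

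Regulators of entry into the cycle included rises of both drivers and inhibitors. Of 28 members tested, 16 were higher in iRTE, 2 lower and 10 did not pass, with a median log2 change of 0.61. Cdkn2b, the CDK inhibitor p15, had 8.72, 12.4, 15.6, 5.23 and 10.4 CPM in iRTE 1 to 5, against 0, 0, 0, 0 and 0.0849 CPM in splenic 1 to 5 (edgeR adjusted p = 9.38e-11), the splenic value being 1 count in all. Cdkn1a, the p53 target p21, had 12.6, 21.2, 37.1, 1.495 and 19.1 CPM in iRTE 1 to 5, against 0.108, 0, 0.141, 0 and 0 CPM in splenic 1 to 5 (edgeR adjusted p = 1.36e-07). Splenic 1 and splenic 3 held 2 counts each. Both inhibitors were thus near absent in splenic cells and lowest within iRTE in iRTE 4.

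Cdkn1b, the inhibitor p27 of resting cells, fell by 0.45 ± 0.12 (edgeR adjusted p = 0.0111), which did not pass in iRTE 4 and 5 alone (-0.36, edgeR adjusted p = 0.13). Myc, a transcription factor that drives cell growth, had 296, 339.5, 343, 304 and 825 CPM in iRTE 1 to 5, against 64.8, 70.8, 72.2, 89.5 and 75.8 CPM in splenic 1 to 5 (2.50 ± 0.29, edgeR adjusted p = 3.76e-08). E2f1 was 5.80-fold higher (2.54 ± 0.24, edgeR adjusted p = 5.87e-09) and Cdk6 4.89-fold higher (2.29 ± 0.24, edgeR adjusted p = 1.46e-08). Ccnd2 rose by 0.66 ± 0.23 (edgeR adjusted p = 0.00303), which missed the threshold with iRTE 4 and 5 alone (0.15, edgeR adjusted p = 0.272), and Ccnd3 changed by -0.03 (edgeR adjusted p = 0.834). Rbl2, a pocket protein of resting cells, changed by -0.33 (edgeR adjusted p = 0.314), and was lower by 0.78 without iRTE 4 (edgeR adjusted p = 0.00148).

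Apoptosis regulators moved in both directions. Of 28 members tested, 12 were higher in iRTE, 9 lower and 7 did not pass, with a median log2 change of 0.23. Phlda3, a p53 target, was 25.9-fold higher (4.69 ± 0.45, edgeR adjusted p = 1.27e-08). Bcl2l11, the pro-apoptotic Bim, was 3.39-fold higher (1.76 ± 0.26, edgeR adjusted p = 3.79e-07) and Bbc3, which encodes Puma, 2.55-fold higher (1.35 ± 0.12, edgeR adjusted p = 6.37e-07). The protective Bcl2l1 was 2.21-fold higher (1.14 ± 0.15, edgeR adjusted p = 6.43e-07), and Birc2, an inhibitor of cell death, 2.68-fold lower (-1.42 ± 0.16, edgeR adjusted p = 4.3e-08).

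Ribosomal and mitochondrial genes were higher, more so in iRTE 1 to 3. Of 84 cytosolic ribosomal protein genes 81 were higher and 1 lower, with a median of 1.21, which was 1.49 in iRTE 1 to 3 alone and 0.62 in iRTE 4 and 5 alone. Their summed level was 34093 to 74560 CPM in iRTE and 20442 to 24148 CPM in splenic libraries. Rpl10 was 3.12-fold higher (1.64 ± 0.20, edgeR adjusted p = 2.25e-07). Rpl39l, a ribosomal protein copy known from testis, had no count in iRTE and 2.05, 1.203, 2.67, 1.39 and 1.95 CPM in splenic 1 to 5, at least 7.74-fold lower (edgeR adjusted p = 0.000174).

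Of 76 mitochondrial ribosomal protein genes 60 were higher and 2 lower, and of 45 respiratory chain genes 43 were higher and none lower, with medians of 0.77 and 0.99. Atp5a1, a subunit of the ATP synthase, had 1424, 1428, 1130, 1169 and 1028 CPM in iRTE 1 to 5, against 601, 587, 606, 616 and 638 CPM in splenic 1 to 5 (1.02 ± 0.10, edgeR adjusted p = 3.47e-08). Of 20 transcripts of the mitochondrial genome 19 were higher, with a median of 1.46. Their summed level was 19290 to 24477 CPM in iRTE 1 to 3 and 8687 to 9298 CPM in iRTE 4 and 5, against 5625 to 8483 CPM in splenic libraries.

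Glycolysis genes were more often higher than lower. Of 25 members tested, 14 were higher in iRTE, 7 lower and 4 did not pass, with a median log2 change of 0.61. Their summed level was 6978 to 12378 CPM in iRTE and 3724 to 4143 CPM in splenic libraries. Hk2, the inducible hexokinase, had 9.29, 2.13, 4.42, 5.98 and 5.69 CPM in iRTE 1 to 5, against 0.594, 0.637, 1.05, 0.845 and 0.764 CPM in splenic 1 to 5 (2.81 ± 0.36, edgeR adjusted p = 2.81e-06). Eno1 was 3.48-fold higher (1.80 ± 0.12, edgeR adjusted p = 3.35e-10) and Pkm 3.54-fold higher (1.83 ± 0.15, edgeR adjusted p = 7.11e-10). Ldhb, the heart-type chain of lactate dehydrogenase, was the opposite, with 5.75, 5.77, 4.25, 19.4 and 11.003 CPM in iRTE 1 to 5, against 35.9, 29.5, 33.1, 36.9 and 38.7 CPM in splenic 1 to 5 (-1.89 ± 0.40, edgeR adjusted p = 1.51e-05).

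Stress and redox genes were also higher. Of 31 genes of ATF4 and the unfolded protein response 24 were higher and 2 lower, with a median of 0.96. Xbp1, the transcription factor of that response, was 4.12-fold higher (2.04 ± 0.18, edgeR adjusted p = 4.84e-09). Of 25 Nrf2 and redox genes tested, 20 were higher in iRTE, 2 lower and 3 did not pass, with a median log2 change of 1.16. Gsto1, a glutathione transferase, had 97.6, 105, 93.982, 104 and 45.6 CPM in iRTE 1 to 5, against 8.42, 8.14, 7.31, 8.87 and 8.15 CPM in splenic 1 to 5 (3.44 ± 0.23, edgeR adjusted p = 5.58e-11). Prdx1, a peroxiredoxin, was 3.47-fold higher (1.80 ± 0.12, edgeR adjusted p = 4.13e-10), and Gclc, the rate-limiting enzyme of glutathione synthesis, 1.89-fold lower (-0.92 ± 0.19, edgeR adjusted p = 0.000146). Of 42 clustered histone genes tested, out of 69 in the files, 24 were higher and 3 lower. Of 40 tested in each subset 30 were higher and 3 lower in iRTE 1 to 3 alone, and 11 higher and 4 lower in iRTE 4 and 5 alone. Hist1h1e, a linker histone, was 8.20-fold higher (3.04 ± 0.23, edgeR adjusted p = 7.11e-10).

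Genes of fetal and progenitor cells were detected in iRTE at levels that varied between libraries. Of 34 in the files 17 passed the filter, of which 9 were higher and 2 lower, with a median of 2.19, or 0.52 with groups without counts at their floor. Lin28b, which marks fetal blood cell development, had 0.192, 3.91, 0.885, 5.86 and 7.93 CPM in iRTE 1 to 5, with no count in any splenic library, at least 18.4-fold higher (edgeR adjusted p = 2.11e-05). Only iRTE 1 was at or under its floor. Igf2bp3, a fetal RNA-binding protein, was 5.84-fold higher (2.55 ± 0.43, edgeR adjusted p = 2.39e-06) and Arid3a, which acts with Lin28b in fetal B cells, 4.58-fold higher (2.19 ± 0.23, edgeR adjusted p = 1.15e-07). Kit, the stem cell factor receptor, named here after its values were seen, had 74.5, 125, 124, 24.2 and 3.902 CPM in iRTE 1 to 5, against 0.648, 0.354, 0.281, 0 and 0.425 CPM in splenic 1 to 5 (7.63 ± 1.03, edgeR adjusted p = 2.93e-07), with changes of 8.25 in iRTE 1 to 3 alone and 5.33 in iRTE 4 and 5 alone. Sox4, a factor of early thymocytes, fell by 1.14 ± 0.53 (edgeR adjusted p = 0.00246).

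Of 18 imprinted genes tested 7 were higher and 3 lower, with a median of 0.40, or 0.14 with groups without counts at their floor. Snrpn, expressed from the paternal allele, had 134, 139, 179, 119.6 and 159 CPM in iRTE 1 to 5, against 8.42, 9.13, 8.23, 8.33 and 9.17 CPM in splenic 1 to 5. The spread was small in both groups and the change 16.9-fold (4.08 ± 0.11, edgeR adjusted p = 3.42e-13). Cd81, a tetraspanin, was 10.5-fold lower, at 0 to 6.46 CPM in iRTE and 21.7 to 31.6 CPM in splenic libraries (-3.40 ± 0.96, edgeR adjusted p = 2.42e-05), or -4.14 without iRTE 3.

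DNA methylation and Polycomb genes fell more often than they rose. Of 31 members tested, 5 were higher in iRTE, 12 lower and 14 did not pass, with a median log2 change of -0.28. Tet1, an enzyme that oxidises methylated cytosine, had 2.49, 0.444, 4.69, 8.47 and 2.24 CPM in iRTE 1 to 5, against 42.9, 47.1, 42.6, 50.3 and 30.6 CPM in splenic 1 to 5 (-3.52 ± 0.66, edgeR adjusted p = 2.78e-06), or -4.11 without iRTE 4. Tet2 was 2.18-fold lower (-1.12 ± 0.18, edgeR adjusted p = 3.44e-05), Dnmt3a, a de novo methyltransferase, 1.77-fold lower (-0.82 ± 0.10, edgeR adjusted p = 1.14e-05), and Cbx7, a Polycomb subunit, 5.34-fold lower (-2.42 ± 0.39, edgeR adjusted p = 1.18e-06). Rbbp4, a histone chaperone, rose by 0.87 ± 0.09 (edgeR adjusted p = 3.83e-07). Dnmt1, the maintenance methyltransferase, changed by 0.12 and Ezh2, the Polycomb methyltransferase, by 0.16 (edgeR adjusted p = 0.506 and 0.591).

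Y-linked genes were detected in iRTE and had no count in splenic cells. Eif2s3y had 94.5, 82.9, 64.2, 53.9 and 99.5 CPM in iRTE 1 to 5, with no count in any splenic library, and was at least 387-fold higher. Uty was detected in every iRTE library too, at least 213-fold higher. Ddx3y had 70.045, 43.4, 50.1, 111 and 0 CPM in iRTE 1 to 5, with no count in any splenic library, and Kdm5d 8.72, 2.22, 0.354, 82.2 and 0 CPM in iRTE 1 to 5, with no count in any splenic library. Neither had a count in iRTE 5, although Eif2s3y and Uty did, and Kdm5d lay mostly in iRTE 4, its edgeR adjusted p being 0.00664 without that library. Of 423 X-linked genes tested 31.0% were higher and 27.2% lower, with a median of 0.02, beside 30.5% and 28.9% of 12589 autosomal genes, with a median of -0.01.

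Immediate early genes set iRTE 5 apart. Of 32 members tested, 12 were higher in iRTE, 4 lower and 16 did not pass, with a median log2 change of 0.34. Without iRTE 5 the list held 8 rises and 17 falls, and in iRTE 1 to 3 alone its median was -1.05. Egr1, induced within minutes by receptor signals, had 20.027, 18.7, 16.2, 5.17 and 356 CPM in iRTE 1 to 5, against 55.1, 55.8, 56.036, 64.1 and 52.8 CPM in splenic 1 to 5 (0.56 ± 1.01, edgeR adjusted p = 0.531), and was lower by 1.93 without iRTE 5 (edgeR adjusted p = 8.49e-06). Nr4a1, a reporter of antigen receptor signals, had 5.94, 1.69, 3.01, 1.12 and 113 CPM in iRTE 1 to 5, against 18.9, 15.4, 20.1, 22.3 and 14.1 CPM in splenic 1 to 5 (0.47 ± 1.16, edgeR adjusted p = 0.645), and was lower by 2.66 without iRTE 5 (edgeR adjusted p = 3.34e-06).

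Junb had 110.0, 107, 146, 91.9 and 853 CPM in iRTE 1 to 5, against 116, 110.0, 119, 142 and 132 CPM in splenic 1 to 5 (1.08 ± 0.60, edgeR adjusted p = 0.049), and changed by -0.12 without iRTE 5 (edgeR adjusted p = 0.405). Its call was also lost without any 1 of the splenic libraries, at edgeR adjusted p values of 0.0608 to 0.0842. For Jun and Jund every iRTE library lay above every splenic one. Jun, a subunit of AP-1, had 66.979, 72.5, 52.6, 39.6 and 124 CPM in iRTE 1 to 5, against 8.26, 7.64, 7.87, 8.33 and 7.56 CPM in splenic 1 to 5 (3.16 ± 0.28, edgeR adjusted p = 1.39e-08). Jund was 5.14-fold higher (2.36 ± 0.17, edgeR adjusted p = 2.16e-10). Dusp2, a phosphatase of MAP kinases, was lower in all iRTE libraries, at 66.9 to 293 CPM in iRTE and 383 to 449 CPM in splenic libraries (-1.68 ± 0.38, edgeR adjusted p = 6.98e-05).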

How the data were processed

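The deposited files hold whole-number counts per gene symbol. STAR 2.4.2, Subread and build mm9 stand in the submitters' processing notes. Which annotation and strand setting were used is not given in the sources used here, so reads of overlapping and antisense genes cannot be told apart, and duplicated reads were not counted by molecule. A second deposited table holds log2 values, for which the submitters' processing notes name edgeR, covering 17765 of 43280 genes. These log2 values equal TMM log2 CPM with a prior count of 2 (largest difference 5.33e-14) and served only for that check.

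All 18 libraries in 4 groups entered an edgeR 4.0.16 quasi-likelihood fit (R 4.3.3) with TMM scaling and the default filter (13922 genes), so that the other groups help to estimate the spread. iRTE minus splenic was tested with Benjamini-Hochberg adjustment over all genes at 0.05. SE values come from log2 CPM with a prior count of 2 within groups, and intervals from limma 3.58.1 on the same log2 CPM. CPM use TMM-scaled library sizes. A fold against a group without counts uses a floor of 3 counts per library. Alternatives were RLE and upper quartile scaling, no filter, a mean of at least 10 CPM, DESeq2 1.42.0, limma-voom, the 10 libraries alone, a replicate block, each library left out and each set of iRTE libraries alone. No pair of replicates agreed within sampling noise (chi-square over degrees of freedom 4.51 or more). Same-numbered libraries of the groups have no stated link beyond the number, and the correlation of their deviations was -0.032 to 0.057. That correlation cannot show whether they shared a preparation.

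Genes were named by a rule: the 12 largest rises and falls with a mean of at least 10 CPM, the 6 largest changes in CPM, up to 2 called members and others of each of 43 gene lists, and key genes marked in the lists. Cd6 and Kit lie outside it, and some genes it names are not reported here. The groups, gene lists, rule and alternatives were chosen with earlier results of these data known, so no list is independent support for its own direction. Promoters are RefSeq sequences of GRCm38.p6, from 250 bases before to 50 after the start. The files give no coordinates, and 93.5% of the genes tested matched RefSeq by symbol for their chromosome. A promoter window was found for 9398 of the 13922.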

Additional observations from a re-analysis of the deposited data

Results flagged for a closer look

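A library was marked where its gap to the nearest other library of its group, divided by the range of the group, exceeded 0.71, the critical value of Dixon's test for 5 samples. Of 328 groups of 5 examined for 164 genes 34 exceeded it. Chance alone marks about 1 in 20 groups. The ratio is given in brackets for each.

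iRTE 4 was the lowest iRTE library in Cd8a (0.867), H2-D1 (0.794), Klrd1 (0.814), Nfil3 (0.720) and Top2a (0.800). It was the highest in Dapl1 (0.888), Cd55 (0.807), Ifitm1 (0.822), Ifitm3 (0.824) and Kdm5d (0.894). iRTE 5 was the highest iRTE library in Egr1 (0.958), Nr4a1 (0.957), Junb (0.929), Myc (0.912), Cd28 (0.901), Dusp2 (0.751) and Cxcr4 (0.732), and the lowest in Gsto1 (0.816) and Gimap3 (0.778). iRTE 3 was the highest in Gata1 (0.833) and Thy1 (0.787) and the lowest in Tcrg-C2 (0.855).

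Among splenic libraries, splenic 5 was the highest in Ifitm1 (1.00, all its counts), Ifitm2 (0.858), Ly6e (0.790), Xbp1 (0.722) and Prf1 (0.711). Splenic 2 was the highest in Igj (0.811) and the lowest in Phlda3 (0.824) and Tcf7 (0.715). Splenic 1 was the highest in Nfil3 (0.737) and the lowest in Gzmm (0.720). Splenic 4 was the highest in Egr1 (0.714) and the lowest in Birc2 (0.767).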

How the results depend on the processing

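The 4069 rises and 4031 falls stayed within 1.5 times of these counts under every alternative run. There were 3673 to 4084 rises and 4048 to 4619 falls across the other scalings, DESeq2, limma-voom and no filter. With a mean of at least 10 CPM there were 2903 and 2771. That filter tests fewer genes, and under it 1044 genes were at least 2-fold higher (2106 without it), 1188 at least 2-fold lower (2454) and 2101 not overlapping below (3153). Limma-voom moved the share of higher calls to 44.3%, against 50.2%. Leaving out 1 library at a time gave 3873 to 4209 rises and 3606 to 4277 falls, 1860 to 2279 genes at least 2-fold higher and 2228 to 2672 at least 2-fold lower, and 2658 to 3310 not overlapping above and 3148 to 3743 below. With the replicate number as a block in the 10 libraries alone, 3039 genes rose and 3523 fell, beside 3447 and 3500 without the block. That block pairs libraries with no stated link beyond the number. In iRTE 1 to 3 alone 4288 of 13617 genes tested rose and 4617 fell. In iRTE 4 and 5 alone 3309 of 14576 rose and 3145 fell. Of 164 named genes the sign turned in 6, counting those where the change passed the test under at least 1 of the 2 settings: Gbp2 (-0.70), Ifi47 (-0.52) and Gimap4 (-0.51) in iRTE 4 and 5 alone, Egr1 in iRTE 1 to 3 alone (-1.63) and without iRTE 5 (-1.93), Nr4a1 in iRTE 1 to 3 alone (-2.36), without iRTE 5 (-2.66) and with limma-voom (-1.68), and Junb in iRTE 1 to 3 alone (-0.03) and without iRTE 5 (-0.12). With each library left out in turn the change ran from -1.93 to 0.86 in Egr1, from -2.66 to 0.79 in Nr4a1 and from -0.12 to 1.30 in Junb. The cause was not tested. Depth limits genes near 3 counts, such as Traj23 and Cdkn2b, where the size of a change cannot be given.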

Other observations

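Gene lists not described above moved as follows, beside 29.2% of all genes tested higher and 29.0% lower in iRTE. Of 31 genes of cholesterol and fatty acid synthesis 24 were higher and none lower, with a median log2 change of 0.90. Their summed level was 2289 CPM in iRTE 4 and 3076 to 3733 CPM in the other iRTE libraries, against 1659 to 1736 CPM in splenic libraries, and in iRTE 4 and 5 alone 18 were higher. Of 17 hypoxia targets 10 were higher and 3 lower (median 0.52), and of 37 aminoacyl tRNA synthetases 20 were higher and 3 lower (median 0.34). Of 19 thymocyte stage genes 7 were higher and 7 lower (median 0.20), or 4 higher and 7 lower without iRTE 5, with 3 higher and 9 lower in iRTE 1 to 3 alone and 9 higher and 7 lower in iRTE 4 and 5 alone. The 10 helper and regulatory CD4 genes tested held 4 rises and 1 fall, and their summed level was 255 to 512 CPM in iRTE and 103 to 113 CPM in splenic libraries. Of 7 myeloid genes tested 2 were higher and 2 lower, with a summed level of 15.9501 to 41.4 CPM in iRTE and 14.8 to 25.8 CPM in splenic libraries.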
